A study of Mus musculus with 14 samples.

Results

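The Nduf genes encode most nuclear subunits of NADH:ubiquinone oxidoreductase, complex I of the mitochondrial respiratory chain, and several factors that assemble it. They were taken as every protein-coding gene of the RefSeq GRCm38 table whose symbol begins with Nduf, which gave 49 of 21779 genes. By their known roles 7 were core subunits, 8 were assembly factors (Ndufaf1 to Ndufaf8) and 2, Ndufa4 and Ndufa4l2, have products that are not complex I subunits. The remaining 32 were counted as accessory subunits, among them Ndufb4b and Ndufb4c, which are near copies of Ndufb4. Peaks of RNF2 and BAP1 were sought within 1 kb of either end of each gene, and a gene with at least 1 bp of a peak there is called occupied below.

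Complex I takes electrons from NADH, passes them through iron-sulfur clusters to ubiquinone and pumps protons across the inner mitochondrial membrane. Its core subunits carry the flavin and the iron-sulfur clusters or form the proton channels, its accessory subunits surround and stabilise the core, and assembly factors join the modules without remaining in the finished enzyme. The genes for the membrane core are on mitochondrial DNA and are not among the Nduf genes. RNF2 (RING1B) is the ubiquitin ligase subunit of Polycomb repressive complex 1, which marks histone H2A, and BAP1 is the deubiquitinase that removes this mark. Nuclear genes of respiration are active in most cell types and are not known as typical Polycomb targets.

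The libraries came from C57BL/6 mouse embryonic stem cells, all kept for 4 days in 100 nM 4-hydroxytamoxifen and 10 µM of the caspase inhibitor emricasan. Of the 14 samples, 7 were chromatin immunoprecipitation (ChIP) libraries and 7 their inputs. RNF2 ChIP was made in 2 libraries of BAP1 knockout cells and 2 of wild-type cells, with 1 library of RNF2 knockout cells as a control for the antibody. BAP1 ChIP had 1 library from C91A cells, whose BAP1 lacks the catalytic cysteine, and 1 from BAP1 knockout cells as its control. The protocols give the C91A cells as Bap1C91A/- and say that they were also crosslinked with disuccinimidyl glutarate. They name neither the Cre line behind the knockouts nor the number of clones, and nothing in them shows that libraries of 1 genotype came from separate cultures. FLAG ChIP was not analysed here. Peaks give no expression level, so the cell type in the labels was not checked against markers.

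The RNF2 libraries of the first pair held 54.1 M tags in BAP1 knockout and 58.4 M in wild type, and those of the second pair 139 M in BAP1 knockout and 149 M in wild type. The labels number only the later library of each genotype, and the unnumbered one was taken here as the first. Depth, software version and fragment setting changed together between the first and the second pair. The lists held 7946 peaks in the first BAP1 knockout library against 4038 in the first wild type, and 39872 in the second BAP1 knockout library against 28770 in the second wild type. The BAP1 list of C91A cells, from 415 M tags, held 2395 peaks with a median length of 120 bp, and that of BAP1 knockout cells, from 32.5 M tags, held 144. With 2 libraries against 2, an exact permutation test cannot go below a two-sided p of 0.333, and the BAP1 comparison has 1 library on each side, so no test between genotypes was made. The main counts of Nduf genes are given beside the share of all protein-coding genes that met the same call.

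The sequences below are the promoters that the results turn on, from RefSeq, GRCm38.p6, each running 5′ to 3′ from 250 bases before the annotated gene start to 50 bases from it. The first set is of the 6 Nduf genes with a BAP1 peak in C91A cells. Capitals mark matches to any of 6 short motifs, on either strand: NRF1 (GCGCATGCG), YY1 (AAGATGG), the ETS motif of GABPA (CCGGAAG), the forkhead motif of FOXK1 and FOXK2 (GTAAACA), THAP11 and ZNF143 (ACTACAATT) and the SP1 GC box (GGGCGG).
Ndufb5 (chr3:32736813-32737112, plus strand): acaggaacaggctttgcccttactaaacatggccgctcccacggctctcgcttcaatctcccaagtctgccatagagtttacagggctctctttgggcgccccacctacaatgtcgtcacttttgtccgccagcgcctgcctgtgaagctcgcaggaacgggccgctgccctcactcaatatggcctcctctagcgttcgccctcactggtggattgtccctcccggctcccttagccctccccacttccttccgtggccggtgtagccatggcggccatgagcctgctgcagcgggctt
Ndufc1 (chr3:51408906-51409205, minus strand): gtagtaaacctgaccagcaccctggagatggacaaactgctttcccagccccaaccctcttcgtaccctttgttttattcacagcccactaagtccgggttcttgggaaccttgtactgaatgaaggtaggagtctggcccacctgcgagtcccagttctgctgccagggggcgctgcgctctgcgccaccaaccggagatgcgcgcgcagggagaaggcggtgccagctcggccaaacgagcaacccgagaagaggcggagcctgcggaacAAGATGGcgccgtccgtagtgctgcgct
Ndufaf5 (chr2:140170396-140170695, plus strand): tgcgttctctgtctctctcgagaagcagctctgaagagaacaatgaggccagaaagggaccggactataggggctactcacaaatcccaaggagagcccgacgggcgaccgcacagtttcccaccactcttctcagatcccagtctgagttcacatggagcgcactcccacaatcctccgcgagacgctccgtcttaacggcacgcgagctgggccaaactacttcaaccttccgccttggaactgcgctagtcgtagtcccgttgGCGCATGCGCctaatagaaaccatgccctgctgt
Ndufa12 (chr10:94198785-94199084, plus strand): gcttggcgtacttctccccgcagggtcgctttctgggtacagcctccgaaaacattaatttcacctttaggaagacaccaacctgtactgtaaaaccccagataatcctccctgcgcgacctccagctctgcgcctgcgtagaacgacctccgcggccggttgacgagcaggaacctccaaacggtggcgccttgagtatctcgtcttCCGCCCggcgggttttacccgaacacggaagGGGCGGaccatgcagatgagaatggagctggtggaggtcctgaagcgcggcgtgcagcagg
Ndufaf1 (chr2:119662785-119663084, minus strand): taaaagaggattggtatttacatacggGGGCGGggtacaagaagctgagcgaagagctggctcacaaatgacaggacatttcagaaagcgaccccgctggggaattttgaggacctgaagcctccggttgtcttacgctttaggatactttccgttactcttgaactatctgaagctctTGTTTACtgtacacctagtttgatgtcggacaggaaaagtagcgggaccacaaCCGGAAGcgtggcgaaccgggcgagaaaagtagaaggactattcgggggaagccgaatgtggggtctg
Ndufs7 (chr10:80249199-80249498, plus strand): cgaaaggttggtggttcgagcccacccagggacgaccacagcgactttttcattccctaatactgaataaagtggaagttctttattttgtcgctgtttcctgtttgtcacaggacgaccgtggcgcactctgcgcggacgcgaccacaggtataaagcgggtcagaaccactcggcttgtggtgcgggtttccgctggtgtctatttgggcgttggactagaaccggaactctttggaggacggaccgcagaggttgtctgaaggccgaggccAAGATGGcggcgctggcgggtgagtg

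Of these 6, Ndufb5 held no match. Ndufc1 and Ndufs7 each held 1 YY1 match just past the gene start, at positions 22 to 28 and 24 to 30 with the gene start as position 0. The BAP1 peak covered the match at Ndufs7. At Ndufc1 it reached no nearer than position 46 and did not cover the match. Ndufaf5 held the NRF1 motif on both strands, overlapping at positions 16 to 25, and the BAP1 peak covered these positions. In Ndufaf1, whose promoter alone among the Nduf genes held the forkhead motif, the match lay at −71 to −65, and the BAP1 peak covered the letters from −184 to −71. The motif and the peak thus met at 1 base.

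The next 3 promoters had no BAP1 peak and had RNF2 in the second library of both genotypes. They are the first 3 in alphabetical order among 12 such Nduf genes with a promoter entry. Among all 12, the NRF1 letters stood at 2 (Ndufa8 and Ndufaf4), the YY1 letters at 1 (Ndufs4) and the ETS letters at 1 (Ndufs8). Capitals in the 3 promoters mark SP1 GC boxes, the only one of the 6 motifs that these 3 held.
Ndufa1 (chrX:37191189-37191488, minus strand): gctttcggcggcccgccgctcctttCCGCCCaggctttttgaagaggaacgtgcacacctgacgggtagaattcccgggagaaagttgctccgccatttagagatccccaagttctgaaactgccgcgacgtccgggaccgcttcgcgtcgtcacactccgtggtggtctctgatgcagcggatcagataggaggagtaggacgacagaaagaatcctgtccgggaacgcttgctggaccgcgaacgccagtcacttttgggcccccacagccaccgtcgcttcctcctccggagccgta
Ndufa13 (chr8:69901971-69902270, minus strand): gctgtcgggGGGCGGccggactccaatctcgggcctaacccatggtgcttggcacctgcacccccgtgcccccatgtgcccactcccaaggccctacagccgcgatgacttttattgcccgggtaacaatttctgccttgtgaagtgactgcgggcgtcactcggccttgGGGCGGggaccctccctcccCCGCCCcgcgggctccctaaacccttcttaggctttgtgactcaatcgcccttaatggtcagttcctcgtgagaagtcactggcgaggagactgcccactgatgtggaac
Ndufa6 (chr15:82354242-82354541, minus strand): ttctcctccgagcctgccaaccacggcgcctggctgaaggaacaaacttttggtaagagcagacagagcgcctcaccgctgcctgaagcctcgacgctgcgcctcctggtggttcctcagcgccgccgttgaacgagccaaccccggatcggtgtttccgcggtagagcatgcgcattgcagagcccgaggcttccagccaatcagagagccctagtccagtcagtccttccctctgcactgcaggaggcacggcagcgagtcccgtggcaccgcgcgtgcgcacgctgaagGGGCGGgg

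Over the 42 Nduf genes with a promoter entry, the NRF1 letters stood in 4 promoters (9.52%; 2.41% of 17492 promoters of protein-coding genes) and the YY1 letters in 8 (19.0%; 6.35%). NRF1 is a known regulator of nuclear respiratory genes. The ETS letters stood in 6 Nduf promoters (14.3%; 11.9% of all), the GC box in 21 (50.0%; 46.3%), the forkhead letters in 1 (2.38%; 2.93%) and the THAP11 and ZNF143 letters in 0 (0.543% of all). Nduf promoters were rich in CpG, with a median of 20.0 CpG in the 300 bases (range 5 to 39) against 13.0 for all promoters. A match says only that the letters are there, and it was not related to binding.

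BAP1 lay at 6 of the 49 Nduf genes in C91A cells (12.2%), where 3.74% of all protein-coding genes were occupied. In BAP1 knockout cells the same antibody gave a peak at 0 of 49, with a background of 0.00459%, which is 1 gene. The 6 genes were 1 core subunit (Ndufs7), 3 accessory subunits (Ndufa12, Ndufb5 and Ndufc1) and 2 assembly factors (Ndufaf1 and Ndufaf5). The control library held far fewer tags than the C91A library, and the part of depth in this difference was not tested.

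The BAP1 peaks were of ordinary height for that list. Fold enrichment is the authors' value for each peak and ranks peaks within a list, so values from different libraries stand side by side below without a comparison of their size. Ndufb5, a subunit of the membrane arm, had the highest, with a fold enrichment over background of 4.06 and a −log10 q of 5.11 in C91A cells, which placed it in the top 13.6% of the list. A lower peak at the same gene had a fold enrichment of 2.78 and a −log10 q of 1.54. Ndufc1, a small subunit of the membrane arm, followed with a single peak of 238 bp at a fold enrichment of 3.91. Both genes are thus in the upper part of the C91A list.

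At Ndufaf5, whose product hydroxylates the core subunit NDUFS7, the fold enrichment was 3.68. The single peak at Ndufaf1, a factor of intermediate assembly, and the higher of 2 peaks at Ndufa12 both had a fold enrichment of 3.53. Ndufs7, a core subunit that carries the last iron-sulfur cluster before ubiquinone, had the lowest of the 6 leading values, 3.42. The median place of the 6 genes in the list, by their highest peak, was the top 37.7%, and that of all 814 BAP1 genes was the top 37.5%. Only Ndufb5 had a −log10 q of 5 or more, which is 1 of 49 Nduf genes (2.04%), beside 0.992% of all genes at that limit.

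The summits of BAP1 were close to the gene start of the promoter entries. In C91A cells the nearest BAP1 summit lay 3 bp upstream of the start at Ndufaf5, 59 bp at Ndufa12, 69 bp at Ndufs7, 99 bp at Ndufaf1 and 258 bp at Ndufb5, and 95 bp downstream at Ndufc1. The median distance was 82.0 bp for the 6 Nduf genes and 164 bp for the 624 BAP1 genes with a known start. The gene table lets Ndufs7 begin 344 bp further upstream, 275 bp from the BAP1 summit. All 6 nearest summits lay within 500 bp, as did 80.0% for all BAP1 genes. At Ndufb5 the nearest summit was that of the lower peak, and the summit of the higher peak lay 520 bp upstream. By the summit of the highest peak, the median distance was 97.0 bp for the 6 Nduf genes and 235 bp for all BAP1 genes with a known start.

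**Figure D1:**
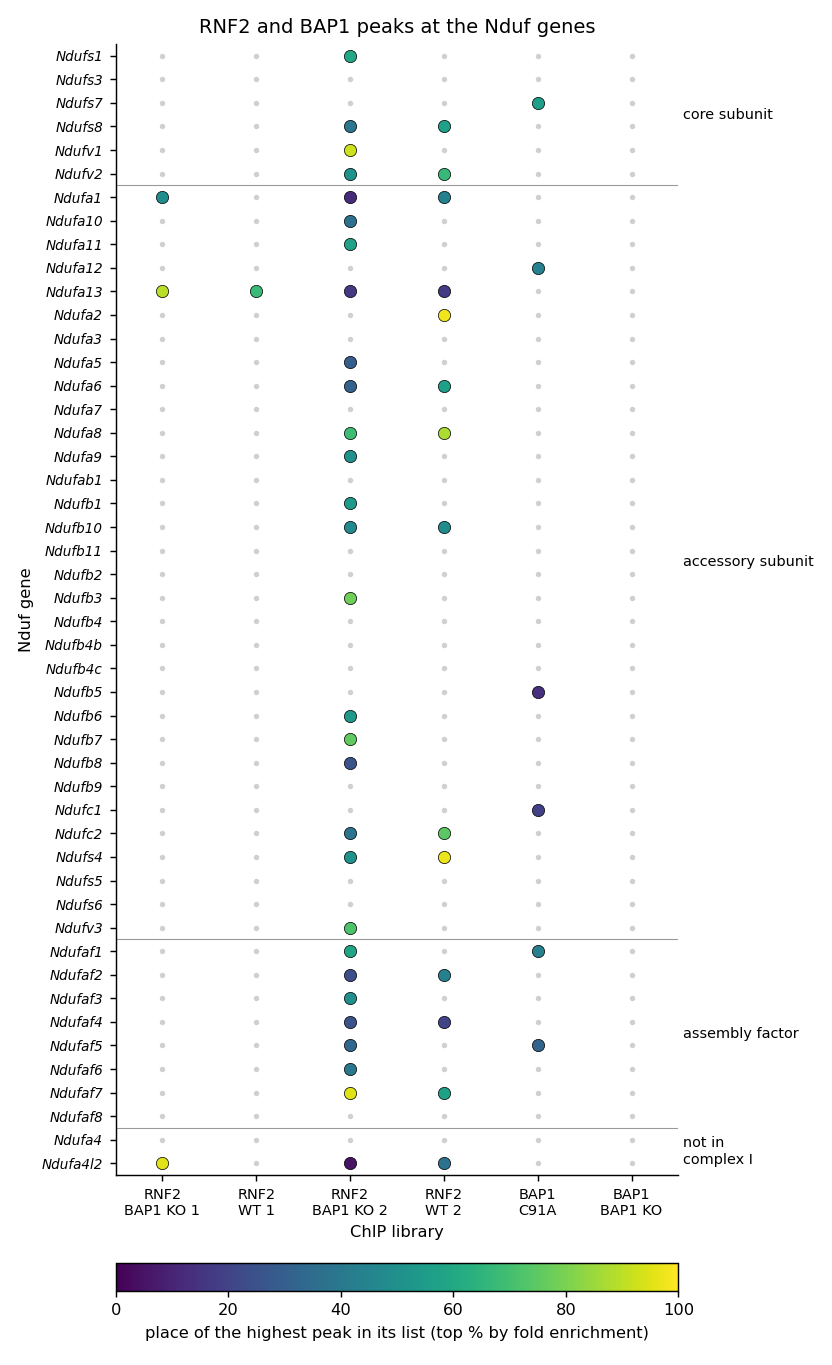
Rows are 48 of the Nduf genes, grouped by role, and each column a ChIP library. A large point marks a peak within 1 kb of a gene end, its colour the place of the highest peak in that library's list by fold enrichment (0 is the highest), and a small grey point marks no peak. BAP1 points fall on 6 rows, and 4 of these rows have no RNF2 point.

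No RNF2 peak was listed in wild-type cells at the Nduf genes with BAP1. Of the 6, 0 had an RNF2 peak in the first BAP1 knockout library, against 0 in the first wild type. In the second pair 2 had one in BAP1 knockout (Ndufaf1 and Ndufaf5), against 0 in wild type. Among all 814 genes with BAP1 in C91A cells, RNF2 was present at 51.0% in the first BAP1 knockout library and 43.9% in the first wild type, and at 92.3% in the second BAP1 knockout library and 82.7% in the second wild type. Ndufa12, Ndufb5, Ndufc1 and Ndufs7 had BAP1 and no RNF2 in any of the 4 libraries, a pattern met by 4 of 49 Nduf genes (8.16%) and by 48 of all genes (0.220%).

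At the remaining pair, RNF2 and BAP1 summits did not coincide. The RNF2 summit in the second BAP1 knockout library lay 235 bp downstream of the Ndufaf5 start, in a peak of 616 bp with a fold enrichment of 4.41, while the BAP1 summit was 3 bp upstream. At Ndufaf1 the RNF2 peak of 126 bp had a fold enrichment of 3.11 and its summit lay 33 bp upstream of the start. It met the 114 bp BAP1 peak only at its edge. RNF2 and BAP1 libraries came from different cells, so these positions were not measured in the same chromatin.

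RNF2 was seldom present at Nduf genes in the first pair. In the first BAP1 knockout library 4 of 49 were occupied (8.16%; 23.2% of all genes), and in the first wild type 1 of 49 (2.04%; 11.1% of all). In the second pair 30 of 49 were occupied in BAP1 knockout (61.2%; 57.7% of all genes), and 14 of 49 in wild type (28.6%; 49.3% of all). The RNF2 knockout library listed no peak, hence 0 of 49 (0% of all genes). In both wild-type libraries and in the first BAP1 knockout library the Nduf share was thus below that of all genes, and in the second BAP1 knockout library it was near it. With a −log10 q of 10 or more it was below it there too, at 12 of 49 (24.5%; 42.1% of all genes) in BAP1 knockout and 2 of 49 (4.08%; 29.1% of all) in wild type. With every RNF2 list shortened to its 4038 highest peaks, 1 of 49 was occupied in the second BAP1 knockout library (2.04%; 14.9% of all).

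**Figure D2:**
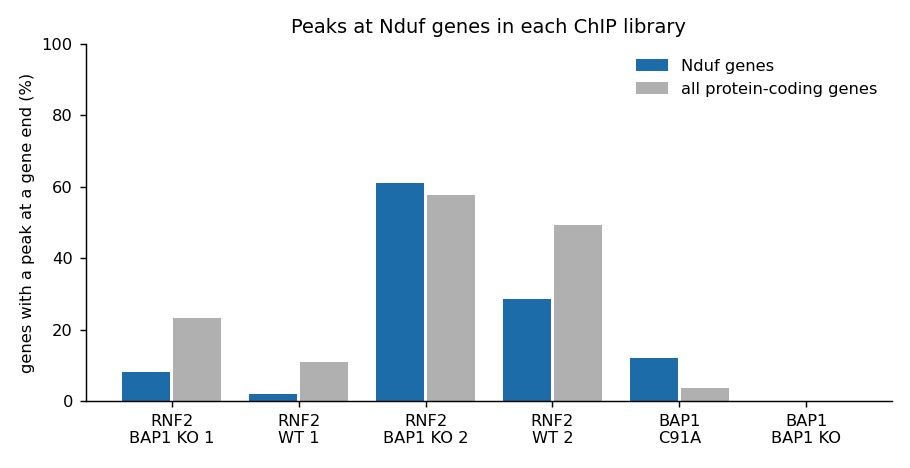
Bars give the percentage of genes with a peak within 1 kb of either gene end in each ChIP library, for the 49 Nduf genes and for all 21779 protein-coding genes. The Nduf bar is below the bar of all genes in the first RNF2 pair and in the second wild-type library (28.6% against 49.3%), near it in the second BAP1 knockout library (61.2% against 57.7%) and above it for BAP1 in C91A cells (12.2% against 3.74%).

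A gene was called gained where BAP1 knockout had a peak and wild type had none, and lost in the mirror case. In the first pair 3 of the 48 Nduf genes without wild-type RNF2 were gained (6.25%; 14.0% of all such genes), among them Ndufa1 and Ndufa4l2, and 0 of 1 was lost (3.14% of all). In the second pair 17 of 35 were gained (48.6%; 19.1% of all) and 1 of 14 was lost (7.14%; 2.68% of all). Across all 4 libraries 1 of 35 was gained (2.86%; 0.326% of all) and 0 of 1 was lost (0% of all). At the stricter limit of a −log10 q of 10 or more, 10 of 47 Nduf genes were gained in the second pair (21.3%; 19.4% of all genes). With the shortened lists 1 of 49 was gained (2.04%; 3.79% of all).

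In the second wild type RNF2 peaks were few at core subunits, as at all Nduf genes (28.6%, beside 49.3% of all protein-coding genes). Ndufs1, the largest core subunit of the peripheral arm, had a peak of fold enrichment 3.09 in the second BAP1 knockout library alone, under which Eef1b2 also lay. Ndufv1, which binds NADH and flavin, had one of 2.41 in that library alone. Ndufv2 had RNF2 in both libraries of the second pair, with a highest fold enrichment of 3.33 in BAP1 knockout and 2.84 in wild type, and Ndufs8 likewise with 3.88 in BAP1 knockout and 3.03 in wild type. Ndufs3 and Ndufs7 had no RNF2 peak in any library.

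Of the 32 accessory subunits, 17 were occupied in the second BAP1 knockout library (53.1%; 57.7% of all genes) and 8 in the second wild type (49.3% of all). The 10 gained in the second pair were Ndufa5, Ndufa9, Ndufa10, Ndufa11, Ndufb1, Ndufb3, Ndufb6, Ndufb7, Ndufb8 and Ndufv3. The most enriched of them was Ndufb8, a subunit of the membrane arm, with a peak of 1169 bp and a fold enrichment of 5.56. Ndufa5, of the peripheral arm, followed with 3 peaks, the highest at 4.87. Ndufa10 had 2, the higher at 4.04.

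The others gained were weak. In the second BAP1 knockout library the highest fold enrichment was 3.33 at Ndufa9, 3.26 at Ndufb1, 3.24 at Ndufb6, 3.19 at Ndufa11, 2.85 at Ndufv3, 2.81 at Ndufb7 and 2.73 at Ndufb3. The Ndufa9 peak was 114 bp long. At these genes the second wild type and both libraries of the first pair listed no peak. The single lost gene was Ndufa2, where the second wild-type library had a peak of 107 bp with a fold enrichment of 2.15 and a −log10 q of 1.36. It was shared with Ik, whose start is close by, and was in the lowest part of the list (top 97.7%).

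Ndufa13 (GRIM-19), an accessory subunit that is also known as a cell death regulator, was the only Nduf gene with RNF2 in all 4 libraries. Its highest fold enrichment was 2.80 in the first BAP1 knockout library and 3.38 in the first wild type, and 8.30 in the second BAP1 knockout library and 6.67 in the second wild type. Relative to the start of its promoter entry the highest summits stood at −1002 bp in the first BAP1 knockout library and −1060 bp in the first wild type, and at −642 bp in the second BAP1 knockout library and −961 bp in the second wild type. Tssk6, a testis kinase gene, begins 164 bp from that start on the other strand. The gene table lets Ndufa13 begin 538 bp further upstream, and from this gene end the summits were 464 and 104 bp away in the first and second BAP1 knockout libraries and 522 and 423 bp in the first and second wild type. Which of both starts was nearer therefore depended on the start used for Ndufa13. In every library the highest summit lay inside the Tssk6 gene. It was 838 and 478 bp downstream of the Tssk6 start in the first and second BAP1 knockout libraries. In the first and second wild type it was 896 and 797 bp downstream.

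Ndufa1, a small subunit of the membrane arm on the X chromosome, was RNF2-occupied in 3 libraries. Its highest fold enrichment was 4.90 in the first BAP1 knockout library, where the first wild type had no peak, and 11.52 in the second BAP1 knockout library, against 3.34 in the second wild type. The peaks covered 1537 bp in the second BAP1 knockout library and 476 bp in the second wild type. Rnf113a1 starts 16 bp from it on the opposite strand, so the distances of a summit to both starts are nearly equal. Each of these RNF2 summits lay upstream of the Ndufa1 start and downstream of the Rnf113a1 start.

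Assembly factors were occupied at 7 of 8 in the second BAP1 knockout library (all but Ndufaf8; 57.7% of all genes) and 3 of 8 in the second wild type (49.3% of all). Ndufaf4 and Ndufaf2 had the highest values. Ndufaf4, which acts early in building the ubiquinone module, had a fold enrichment of 5.62 in the second BAP1 knockout library and 5.57 in the second wild type. Ndufaf2, a late assembly factor, had 5.82 in BAP1 knockout and 3.34 in wild type. Ndufaf7, a methyltransferase of the assembly pathway, had 2.30 in BAP1 knockout and 3.01 in wild type. The gained ones were Ndufaf1, Ndufaf3, Ndufaf5 and Ndufaf6, whose highest values in the second BAP1 knockout library were 3.11 at Ndufaf1, 3.41 at Ndufaf3, 4.41 at Ndufaf5 and 3.89 at Ndufaf6. In the first pair 0 of 8 were occupied in either genotype (23.2% of all genes in BAP1 knockout and 11.1% in wild type).

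Ndufa4l2, a relative of Ndufa4 known for its induction in hypoxia, had the highest RNF2 fold enrichment of the Nduf genes in the second BAP1 knockout list, though not in the other lists. In the second BAP1 knockout library its highest peak had a fold enrichment of 18.17, a length of 7942 bp and a place in the top 5.04% of the list. The summit of this peak lay inside the gene, more than 1 kb from either end. The highest peak with its summit within 1 kb of an end had 6.77, below 11.52 at Ndufa1 and 8.30 at Ndufa13. The start and strand of Ndufa4l2 were not given. In the second wild type its highest peak had 3.57, over 996 bp. The first pair had a peak of 2.53 in BAP1 knockout and none in wild type. Stac3 and Shmt2 lie on either side, and peaks reached both, while Ndufa4, a subunit of complex IV, had no peak anywhere.

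The 5 remaining accessory genes with RNF2 in both libraries of the second pair were Ndufa6, Ndufa8, Ndufb10, Ndufc2 and Ndufs4. At Ndufa6 the highest fold enrichment was 4.63 in BAP1 knockout and 3.02 in wild type, and at Ndufc2 it was 3.97 in BAP1 knockout and 2.70 in wild type. At Ndufs4, a subunit of the peripheral arm, it was 3.33 in BAP1 knockout and 2.16 in wild type. At Ndufb10 it was 3.45 in BAP1 knockout and 3.23 in wild type, and at Ndufa8 2.94 in BAP1 knockout and 2.49 in wild type. These 5 genes were thus occupied in both genotypes. By their highest peaks they stood between the top 31.1% (Ndufa6) and 69.0% (Ndufa8) of the BAP1 knockout list. In the wild-type list they stood between the top 48.0% (Ndufb10) and 97.2% (Ndufs4). A peak was absent from all libraries at 14 Nduf genes, namely Ndufa3, Ndufa4, Ndufa7, Ndufab1, Ndufaf8, Ndufb2, Ndufb4, Ndufb4b, Ndufb4c, Ndufb9, Ndufb11, Ndufs3, Ndufs5 and Ndufs6. That is 28.6% of the family, and 40.8% of all genes had no peak. Ndufb4b and Ndufb4c are near copies of Ndufb4, at which reads may not have been placed uniquely, so the lack of a peak there is uncertain.

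By the median, RNF2 peaks at Nduf genes stood lower in their lists than those of all occupied genes. By its highest peak, the median occupied Nduf gene stood in the top 84.4% of the first BAP1 knockout list, 48.4% of the second BAP1 knockout list and 56.4% of the second wild-type list. For all occupied genes these values were 43.0%, 22.5% and 27.0%. In the second BAP1 knockout library the 17 gained Nduf genes had a median fold enrichment of 3.26, close to 3.32 for all 2107 gained genes. The 13 occupied in both genotypes had a median of 3.97, against 7.63 for all 10456 such genes.

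Peaks were longer in BAP1 knockout. Over the 13 Nduf genes with RNF2 in both libraries of the second pair, peaks covered a median of 638 bp in BAP1 knockout and 362 bp in wild type, and more in BAP1 knockout at 12 of 13 (92.3%), Ndufc2 being the exception. For all such genes the medians were 1624 bp in BAP1 knockout and 946 bp in wild type, and 84.1% were longer in BAP1 knockout. The widening at Nduf genes was thus of the kind seen over all genes, from a shorter base. The BAP1 knockout list of this pair is also the longer one, with slightly fewer tags, and the part of list length in these widths was not tested.

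**Figure D3:**
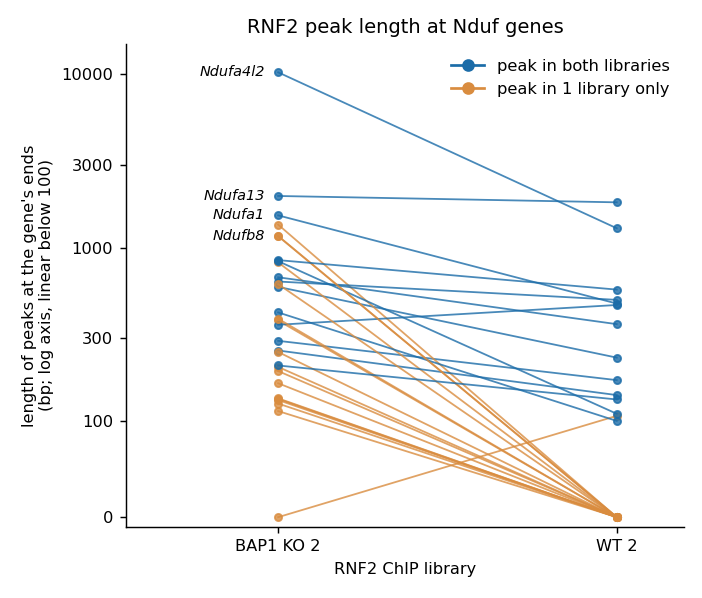
Each line is an Nduf gene with RNF2 in at least 1 library of the second pair (30 genes drawn), and the vertical axis gives the summed length of its peaks in bp on a log axis that is linear below 100. Lines fall from BAP1 knockout on the left to wild type on the right at 12 of the 13 genes with peaks in both, and 16 lines end at 0 in wild type.

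RNF2 peaks lay at the promoter end. Every occupied Nduf gene with a known start had its peak at that end, in each RNF2 library and in the C91A library. For all occupied genes this share was 95.2% to 96.5% in these libraries. The nearest RNF2 summit was a median of 188 bp from the start at 26 Nduf genes in the second BAP1 knockout library and 206 bp at 12 in the second wild type. For all genes the medians were 258 bp in BAP1 knockout and 231 bp in wild type.

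The side of the start was counted for the nearest summit. In the second BAP1 knockout library the nearest summit was upstream at 13 Nduf genes and downstream at 13. In the second wild type it was upstream at 3 and downstream at 9. These are different sets of genes: over the 12 with RNF2 in both libraries, it was upstream at 4 and downstream at 8 in BAP1 knockout, and upstream at 3 and downstream at 9 in wild type. With BAP1 in C91A cells it was upstream at 5 of 6, though at Ndufa12 the summit of the higher peak lay 210 bp downstream. For all genes in the second pair most summits were downstream, with 6611 of 9918 in BAP1 knockout and 5716 of 8413 in wild type.

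**Figure D4:**
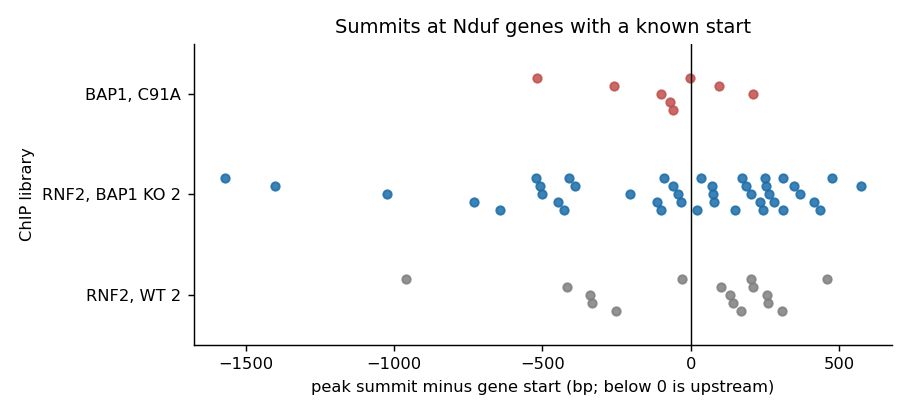
Each point is a peak summit at an Nduf gene with a known start, placed by its distance from that start in bp, with upstream on the left. BAP1 summits of C91A cells lie between −520 and 210 bp, and RNF2 summits of the second BAP1 knockout library spread further upstream, to −1569 bp, than those of the second wild type, which reach −961 bp.

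Many Nduf genes start beside another gene. Only genes with a promoter entry could be counted as neighbours. Of the 42 Nduf genes with a known start, 15 (35.7%) had a protein-coding gene starting on the opposite strand, head to head, within 1 kb, against 9.61% of 17492 genes. These neighbours lay between 10 bp (Rps28, a ribosomal protein gene, beside Ndufa7) and 454 bp (Asb15 beside Ndufa5). Other pairs were Ndufs3 with Kbtbd4, Ndufaf2 with the DNA repair gene Ercc8, Ndufaf5 with Esf1, Ndufb1 with the polyadenylation factor gene Cpsf2, Ndufa11 with Vmac, Ndufb3 with Fam126b, Ndufa8 with Morn5, Ndufb11 with Rbm10, Ndufaf8 with Tepsin and Ndufa4 with Phf14.

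Some peaks stood closer to the neighbour than to the Nduf gene. The BAP1 summits at Ndufb5 lay 520 and 258 bp upstream of it, and 212 bp downstream and 50 bp upstream of Mrpl47, a mitochondrial ribosomal protein gene that starts 308 bp from Ndufb5. At Ndufa11, Ndufb1 and Ndufb3 the only RNF2 peak of the second BAP1 knockout library was likewise nearer to the neighbour, at 185, 271 and 279 bp from its start. At Ndufaf2, Ndufaf5, Ndufa5 and Ndufa8 the highest RNF2 summit was nearer to the Nduf gene. Restricted to peaks that reached no window of another gene, 15 of 49 Nduf genes were occupied in the second BAP1 knockout library (30.6%; 45.3% of all genes) and 6 of 49 in the second wild type (12.2%; 39.1% of all). With this restriction 9 of 43 were gained (20.9%; 13.1% of all) and 4 of 49 had BAP1 in C91A cells (8.16%; 2.61% of all).

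Among genes without such a neighbour, the second pair gained RNF2 at 9 of 19 Nduf genes (47.4%), and at 16.8% of all genes. Among genes with one, it gained RNF2 at 5 of 11 Nduf genes (45.5%) and at 48.3% of all. By this count, gains at Nduf genes were about as frequent with and without a head-to-head neighbour, and the background was not. A neighbour without a promoter entry could not be counted, so genes classed as without a neighbour may have one. Ends of Dalrd3 and Wdr4 lay 48 bp from the start of Ndufaf3 and 130 bp from that of Ndufv3. Both Nduf genes were classed as without a neighbour, and their gained peaks also reached Dalrd3 and Wdr4.

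CpG content was higher at Nduf promoters than at all promoters, and its part in the gains was not tested. Among Nduf promoters the median was 19.5 CpG at genes gained in the second pair, 21.5 at those with RNF2 in the second wild type and 21.5 at those with no RNF2 peak. Of the 42 Nduf promoters, 40 held 10 or more CpG in the 300 bases, a limit chosen after the values were seen. Among genes at or above it, 14 of 29 Nduf genes without RNF2 in the second wild type were gained in the second BAP1 knockout library (48.3%), and 46.7% of all such genes were. At this limit the gained share of the Nduf genes was thus near that of all genes with CpG-rich promoters. At 15 or more CpG it was 14 of 25 (56.0%; 49.0% of all), and at 20 or more 7 of 17 (41.2%; 49.0% of all). Among genes with 10 or more CpG, RNF2 occupied 62.5% of Nduf genes in the second BAP1 knockout library and 27.5% in the second wild type. For all genes in this class it occupied 83.0% in BAP1 knockout and 71.4% in wild type. BAP1 in C91A cells was at 6 of the 40 Nduf genes and at 5.69% of all genes in the class.

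**Figure D5:**
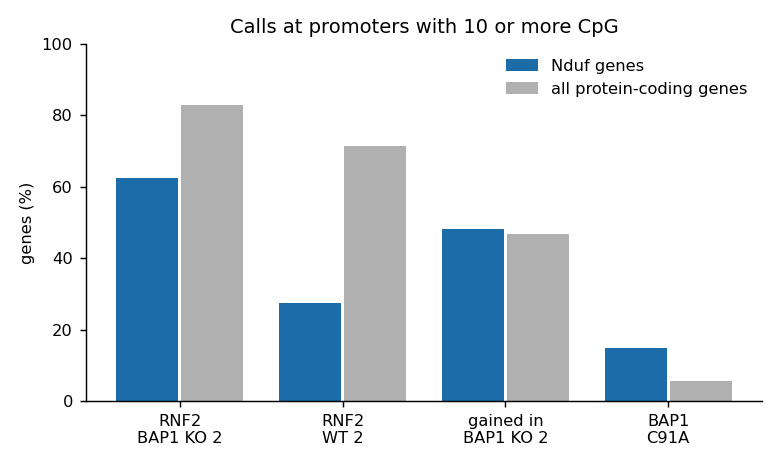
Bars give percentages of genes whose promoter held 10 or more CpG in 300 bases, for 40 Nduf genes and 10008 genes in all; the bars for gains count only genes without RNF2 in the second wild-type library. Nduf genes were below all genes for RNF2 in both genotypes, at 48.3% against 46.7% for gains, and above all genes for BAP1, at 6 of 40 against 5.69%.

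Other genes of respiration were counted in the same way, beside the same 19.1% of all genes gained in the second pair. Gains in the second pair were found at 6 of 11 complex III genes (54.5%), led by Uqcrc2 at a fold enrichment of 5.56 and Cyc1 at 3.26, at 2 of 3 complex II genes, at 4 of 16 complex IV genes, at 2 of 10 complex V genes (20.0%) and at 1 of 3 complex I assembly genes without an Nduf symbol. Sdhc, the membrane anchor of complex II, had 3.27 in the first BAP1 knockout library and 7.25 in the second, and no peak in wild type. Among 12 regulators of mitochondrial genes 0 of 4 were gained. The 78 mitochondrial ribosomal protein genes, a list added after the data were seen, were gained at 18 of 41 (43.9%).

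Beside 3.74% of all genes, BAP1 in C91A cells lay at 3 of 15 complex III genes (Uqcrh, Uqcc1 and Cyc1), 1 of 8 complex II genes (Sdhb), 0 of 30 complex IV genes, 0 of 19 complex V genes, 1 of 11 further complex I assembly genes (Dmac2) and 14 of 78 mitochondrial ribosomal protein genes (17.9%), among which Mrpl47 is the partner of Ndufb5. The difference between these lists and the Nduf genes was not tested. In the first pair RNF2 lay at 0 of 30 complex IV genes and 0 of 19 complex V genes in either library. For all genes the RNF2 shares were 23.2% in the first BAP1 knockout library and 11.1% in the first wild type.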

How the data were processed

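RNF2 and BAP1 ChIP-seq peak lists of 7 ChIP libraries from mouse embryonic stem cells were used. The submitters' processing notes name GSNAP and the build GRCm38, or mm10, for the 50 bp reads. Per the file headers, the authors called peaks with MACS2, each library against its own input, and kept those with q up to 0.05. Version 2.1.0.20150420 was used for the first RNF2 pair and both BAP1 libraries, and 2.1.1.20160309 for the second pair and the RNF2 knockout. Fragment length was 323 bp in the first BAP1 knockout library and 297 bp in the first wild type, 100 bp in the second pair, 50 bp in C91A and 147 bp in the BAP1 control. Each peak in the deposited lists carries a pileup signal, a −log10 p-value, a −log10 q-value and a fold enrichment, which is a ratio to local background. The authors' fold enrichment only ranks peaks within a list here, and pileup signal was not compared between libraries.

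Genes came from RefSeq GRCm38.p6 after removal of 108 entries in the first 3 Mb of a chromosome. The start and strand of 42 Nduf genes came from RefSeq promoter entries. Overlaps used Python 3.11.15 with pandas 2.3.3. The overlap step was checked on simulated data. Gene roles came from general knowledge. Members and lists were chosen with earlier results of these data known. Named genes were all Nduf genes with BAP1, with RNF2 in all 4 libraries or gained or lost, those without a peak, head-to-head neighbours, and up to 4 genes of each other list by fold enrichment. The values of 1 Nduf gene are not reported here; it stays in the counts.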

Additional observations from a re-analysis of the deposited data

How the results depend on the processing

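The labels number only the later RNF2 library of each genotype, and the unnumbered libraries were taken as the first pair. Gains and losses were counted within each pair and across all 4 libraries, and no paired test was made. Counts are for the second RNF2 pair unless stated, with the share of all genes in brackets where it bears on a statement. With a −log10 q of 5 or more, RNF2 was at 8 Nduf genes in wild type (40.8%), BAP1 at 1 (0.992%; its summit 520 bp from the start), 1 gene had BAP1 without wild-type RNF2, and 0 were lost. At 10 or more, RNF2 was at 12 genes in BAP1 knockout (42.1%) and 2 in wild type (29.1%), and in the first pair at 1 in BAP1 knockout (17.2%) and 0 in wild type (6.71%). At this limit 10 genes were gained (19.4%; 1 in the first pair), 0 were lost, and BAP1 was at 0, leaving 0 without RNF2. With every RNF2 list shortened to the 4038 highest peaks, RNF2 was at 1 gene in BAP1 knockout (14.9%) and 0 in wild type (14.1%), at 1 in the first BAP1 knockout library (13.4%), 1 was gained (3.79%) and 0 lost (1 and 1 in the first pair), and 0 were gained across all 4 libraries.

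Windows around the annotated start, which 7 members lack, gave 2 in the first BAP1 knockout library, 1 gained in the first pair, 0 lost and 0 gained across. The gain across, 1, was also 0 with 500 bp windows and with the summit in the window, ranged from 1 to 17 when 1 library was left out (losses from 0 to 1), and was 17 without the first BAP1 knockout library and 3 without the second wild type. Peaks touching no other gene's window, a setting added after the data were seen, gave 15 genes in BAP1 knockout (45.3%) and 6 in wild type (39.1%), 1 in BAP1 knockout and 0 in wild type in the first pair, 9 gained (13.1%; 1 in the first pair), 0 lost and 0 gained across. With neighbouring genes counted as 1 locus, the first wild type had 2. The remaining counts stayed within 1.5 times, among them 14 to 17 gained with 7 of the settings. Peaks near the cutoff in shallow libraries can be missed, so a listed gain is not a measured rise in signal.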
